A study of Mus musculus with 2 samples.

Results

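Lysosomal enzymes and membrane proteins were followed as a set of 35 genes, chosen by symbol from the 31053 genes of the count matrices and read in single cells of mouse brain. The set holds 11 proteases and peptidases (the cathepsins, legumain and Tpp1), 7 glycosidases, 7 enzymes, activators and carriers of lipids together with progranulin, and 10 membrane proteins. All 35 had at least 1 UMI (unique molecular identifier, the tag that counts an RNA molecule once) in cells kept after filtering, where they made up 1.295% of control UMIs (25941) and 1.209% of MNPQ UMIs (23682).

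The study compared C57BL/6 mice given maneb and paraquat (MNPQ), a pesticide pair used to model Parkinson's disease, with control mice. The treatment, begun at an age of 10 weeks, was an intraperitoneal injection of 10 mg/kg paraquat followed after an hour by 30 mg/kg maneb, 2 times a week for 3 weeks. The control mice received saline on that schedule per the protocol and are labelled untreated. The tissue label is substantia nigra pars compacta, taken as a punch from a 1 mm brain slice and dissociated with papain. Cells of 3 mice per group were chosen for isolation, and each group has 1 droplet library (10x Genomics Chromium), so the mice of a group cannot be told apart and treatment, dissection and library cannot be told apart either. The sex is labelled as pooled male and female, but males are named in the protocol.

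The lysosome is the acidic compartment in which cells break down proteins, glycans, lipids and worn organelles delivered by endocytosis, phagocytosis and autophagy. Its soluble hydrolases are made as precursors and sorted by receptors, its membrane is lined by heavily glycosylated proteins such as LAMP1 and LAMP2, and a proton pump, the V-ATPase, keeps the lumen acidic. Microglia, the phagocytes of brain tissue, carry a large lysosomal load, and inherited loss of many of these enzymes causes storage diseases of the nervous system.

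Barcodes with 200 or more genes and no more than 20% of UMIs from mitochondrial genes (mt-) were kept: 882 from the control library, holding 2002640 UMIs, and 854 from the MNPQ library, holding 1958634. The median depth per cell was 974 UMIs (control) and 945.5 (MNPQ). The libraries shared 2 barcode sequences. Cells were clustered without the members and without 103 other lysosome genes, and clusters were named from marker lists with the ending -like. The 6 classes compared, each with at least 30 cells in both libraries, were astrocyte-like (322 control and 299 MNPQ cells), microglia-like (192 and 139), neuron-like (120 and 140), mature oligodendrocyte-like (54 and 80), endothelial-like (73 and 68) and pericyte-like cells (30 and 31). Of 8 markers of dopaminergic neurons, which the labelled region is known for, 5 were at or near 0. Over all barcodes, Th and Slc6a3, needed to make and take up dopamine, had 1 UMI each (control) and 0 (MNPQ), Slc18a2 had 4 and 1, and Pitx3 and En1 had 0 in both. The 3 other genes of the list had more UMIs: Ddc had 44 and 65 (2 and 4 in neuron-like cells), Nr4a2 21 and 21 (4 and 11) and Aldh1a1 77 and 113 (1 and 5). The list of 8 summed to 58.1 and 147 CPM in neuron-like cells. With 1 library per group there is no test, and a difference can only be set against counting error: levels are given in CPM, the UMIs of a gene over all UMIs of its class and library brought to a common total, and differences as log2 ratios of MNPQ over control, with exact conditional binomial 95% intervals. These intervals do not cover variation between cells, mice or libraries.

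Many lysosomal genes are known to be under the transcription factor TFEB and its relatives, which bind the CLEAR element around a CACGTG core, so the members' promoters were read for it. RefSeq promoters (build GRCm38.p6, 250 bases before to 50 after each gene's start) were found for 30 of the 35 members. CACGTG, which reads the same on both strands, was found in 11 of them (36.7%): Ctsa, Ctsd, Ctsf, Ctsl, Lgmn, Glb1, Gaa, Gla, Lamp1, Cln3 and Mcoln1. It was found in 8.09% of 27025 genes of the table and in 23.5% of 81 other lysosome genes. The longer palindrome TCACGTGA, which contains CACGTG, was found in 5 members (16.7%) against 1.12% of all genes and 12.3% of the other lysosome genes. The stretches below show the densest case, Lamp1, with 4 copies of CACGTG between 61 and 15 bases before its start, and windows of 30 bases around TCACGTGA in Ctsd, Ctsa (the first of its copies), Cln3 and Mcoln1. Capitals mark the motif, and each sequence is on the gene's own strand: Lamp1 at chr8:13159086-13159160 (plus), Ctsd at chr7:142387908-142387937 (minus), Ctsa at chr2:164833749-164833778 (plus), Cln3 at chr7:126583340-126583369 (minus) and Mcoln1 at chr8:3500462-3500491 (plus).
Lamp1: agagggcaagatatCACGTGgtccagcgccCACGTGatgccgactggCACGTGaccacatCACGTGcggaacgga
Ctsd: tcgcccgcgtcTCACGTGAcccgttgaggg
Ctsa: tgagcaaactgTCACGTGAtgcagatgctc
Cln3: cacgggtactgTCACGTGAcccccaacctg
Mcoln1: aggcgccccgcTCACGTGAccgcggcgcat
The Lamp1 stretch lies upstream of annotated exons, and the other 4 windows overlap an annotated GENCODE exon. Members with the motif lay on both sides of 0 in the comparison of the libraries in microglia-like cells. Ctsd and Lamp1 were at log2 ratios of 0.47 and 0.30, Lgmn at -0.19 and Gaa, on 26 and 8 UMIs, at -1.24. Ctsa, Ctsl and Cln3 were higher, Ctsf was lower and Glb1 level (41.4 and 41.7 CPM), all with intervals that held 0. Gla and Mcoln1 had too few UMIs there. The part of the motif in these ratios was not tested.

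Microglia-like cells held by far the highest summed level of the set. In the control library the 35 members summed to 41805 CPM in microglia-like cells, 9269 in astrocyte-like, 8022 in pericyte-like, 6979 in mature oligodendrocyte-like, 4581 in neuron-like and 4164 in endothelial-like cells. The order was the same in the MNPQ library, at 45769, 8928, 8277, 7141, 6310 and 4522 CPM. Against the pooled other 5 classes the microglia-like sum was 5.93-fold higher in the control (log2 ratio 2.57, 2.53 to 2.60) and 6.36-fold higher in the MNPQ library (2.67, 2.63 to 2.71). Among neighbours in this order, the counting intervals of astrocyte-like cells (8670 to 9191 CPM) and pericyte-like cells (7643 to 8950) overlapped in the MNPQ library, and those of neuron-like (4251 to 4931) and endothelial-like cells (3933 to 4404) overlapped in the control. Of the named classes with too few cells to compare, vascular fibroblast-like cells (3 control and 7 MNPQ cells) were at 14198 and 13280 CPM. The others were at 5280 CPM or below.

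**Figure D1:**
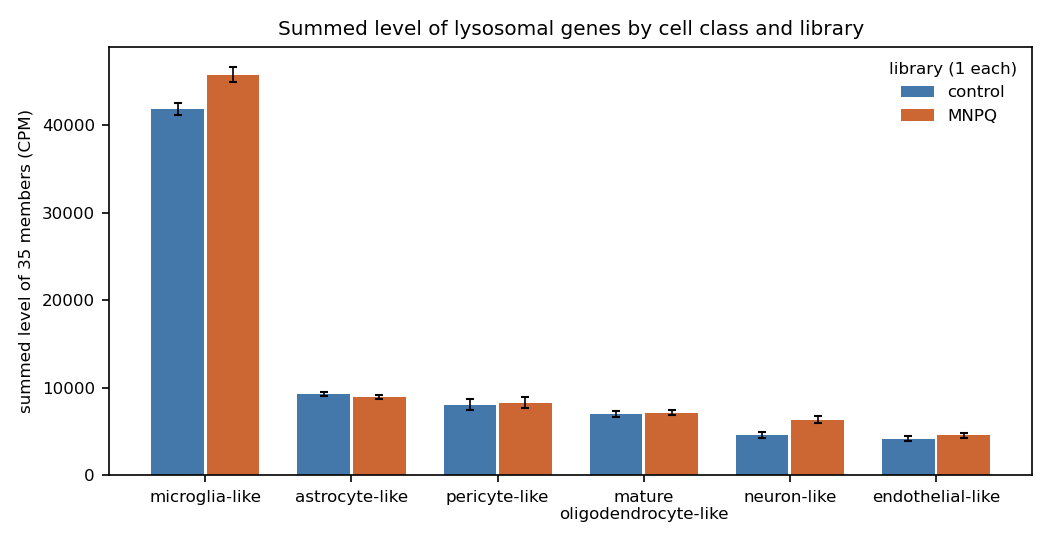
Summed level of the 35 members in CPM of the class total (vertical axis) for the 6 cell classes in the control library and the MNPQ library, 1 library each. Error bars are exact Poisson 95% intervals, which cover counting error only; microglia-like cells stand at 41805 and 45769 CPM and every other class below 10000.

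The class with the highest level was the same in both libraries for 26 of the 33 members with at least 60 UMIs, and for 21 of these it was the microglia-like class. Ctss, a cysteine protease that cuts the invariant chain during antigen presentation, was at 10196 and 9636 CPM in microglia-like cells (control and MNPQ) and at 34.2 and 34.0 CPM over the other classes, a log2 ratio of 8.22 and 8.15 between the classes. Cd68, a membrane glycoprotein of macrophage lysosomes, was at 816 and 830 CPM against 1.55 and 2.77 (log2 ratios 9.04 and 8.23), and Laptm5, a lysosomal membrane protein of haematopoietic cells, at 2060 and 1868 against 8.54 and 6.24 (7.91 and 8.23). These 3 were the members most concentrated in microglia-like cells. In astrocyte-like and neuron-like cells the low Ctss counts went with the counts of the 15 microglia markers. They were few: 27 and 27 Ctss UMIs in astrocyte-like and 9 and 6 in neuron-like cells (control and MNPQ). Endothelial-like cells had 2 and 5 and pericyte-like cells 3 and 1. For each 100 such marker UMIs there were 19.2 and 18.3 Ctss UMIs in microglia-like cells, 20.8 and 26.5 in astrocyte-like cells and 19.6 and 17.6 in neuron-like cells, with 7.41 and 11.1 in endothelial-like cells and 21.4 and 8.33 in pericyte-like cells. Ctsd, the main aspartic protease of the lysosome, did not follow the markers, with 15.2 and 21.1 UMIs for each 100 marker UMIs in microglia-like cells and 234 and 273 in astrocyte-like cells. Laptm5 was at 3.88 and 3.54 in microglia-like cells and 3.85 and 0.98 in astrocyte-like cells. In endothelial-like cells it was at 22.2 and 13.3, on 6 UMIs in each library.

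Other members were higher outside microglia-like cells. In the control, the lowest microglia-like levels relative to the other classes among members with at least 60 UMIs were those of Laptm4b, an endosomal and lysosomal membrane protein (27.6 CPM against 90.9 in the control, 34.1 against 110 in the MNPQ library), of Cd63, a tetraspanin of late endosomes (455 against 924, 693 against 896), and of Gaa, the acid alpha-glucosidase that breaks down glycogen (71.7 against 113, 30.3 against 107). In the MNPQ library Npc1, which moves cholesterol out of the lysosome, was lower in this order than Cd63, at 56.8 against 89.4 CPM. Gaa had its highest level in neuron-like cells, at 477 CPM (control) and 300 (MNPQ). Mature oligodendrocyte-like cells held the highest level of Lamp1 (1953 and 2001 CPM), of Npc1 (191 and 210), and of Scarb2, the receptor that carries glucocerebrosidase to the lysosome (149 and 186). For Scarb2 the lead was small, since microglia-like cells were at 143 and 167 CPM. Pericyte-like cells held the highest level of Laptm4a, a membrane protein of late endosomes and lysosomes (2107 and 1842 CPM). Ctsh, an aminopeptidase, was split between microglia-like (750 and 845 CPM) and endothelial-like cells (516 and 618) and was at 40.5 CPM or below in the remaining classes, and its endothelial-like counts of 559 and 427 for each 100 microglia marker UMIs were far above the 1.41 and 1.60 of microglia-like cells.

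**Figure D2:**
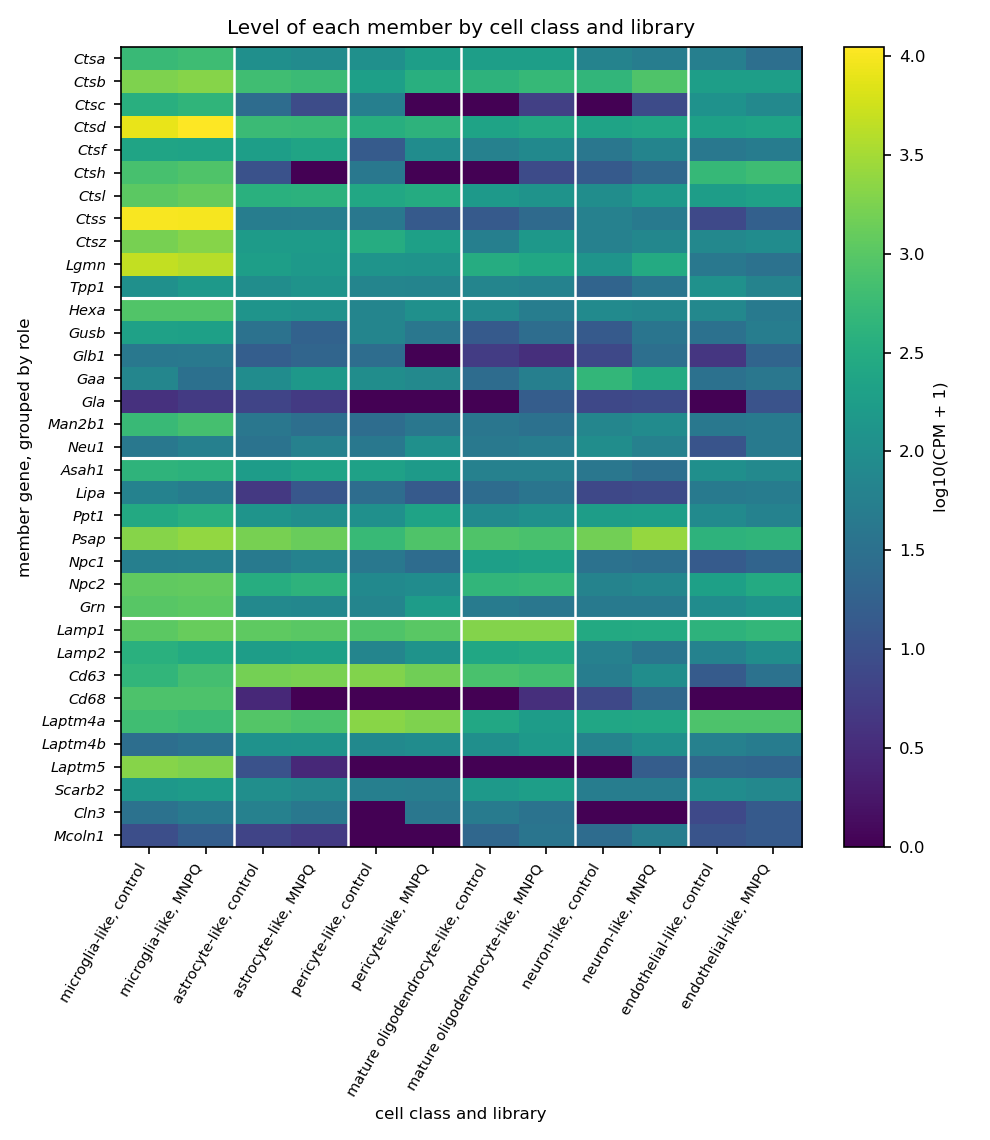
Level of each of the 35 members (rows, grouped by role with white lines) in each cell class and library (columns), as log10(CPM + 1), where 0 is no UMI. Ctsd, Ctss and Lgmn are brightest in both microglia-like columns, Cd68 and Laptm5 are dark outside them, Lamp1 is brightest in mature oligodendrocyte-like and Laptm4a in pericyte-like columns.

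In microglia-like cells the summed level was 1.09-fold higher in the MNPQ library (log2 ratio 0.13, 0.096 to 0.17), and at 0.039 without the deepest cell of each library. Of the 32 members with at least 20 UMIs in the class, 22 were higher and 10 lower, where 43.5% of 3898 genes measured in the class were higher. Only Cd63 and Gaa were past 1.5-fold (25.2% of all genes measured), and the intervals of 9 members excluded 0 (10.3% of all genes), a share that rises with the number of UMIs of a gene. The median of the members was 0.14 and that of all genes -0.072. The deepest cell of the class, an MNPQ cell with 17718 UMIs (the next had 8549), held 6.71% of the UMIs of MNPQ microglia-like cells but 12.8% of their member UMIs, at 87256 CPM against 42783 in the others. Without the deepest cells the interval of the summed ratio was 0.0031 to 0.075, 18 of 32 members were higher and their median was 0.035.

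That cell carried microglia markers (39621 CPM against 53746 in the other MNPQ microglia-like cells) and 2 UMIs of the 9 border macrophage markers. Its Ctsd level was 31042 CPM against 9687 in the other MNPQ cells of the class, and its Cd63 level was 2653 against 552. Lgmn went the other way, at 1750 against 4253 CPM. Other genes, picked after their values were seen, also set it apart: Apoe, a lipid carrier, was at 67953 CPM against 2445, and Lyz2, Cst7 and Lpl, genes known from activated microglia, were at 11062 against 686, 677 against 16.2 and 621 against 16.2 CPM. A single cell has no replicate. Its member level was above the upper quartile of the control cells with at least 1000 UMIs (49010 CPM). It was below their maximum of 109520 CPM, which came from a cell of 1187 UMIs.

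**Figure D3:**
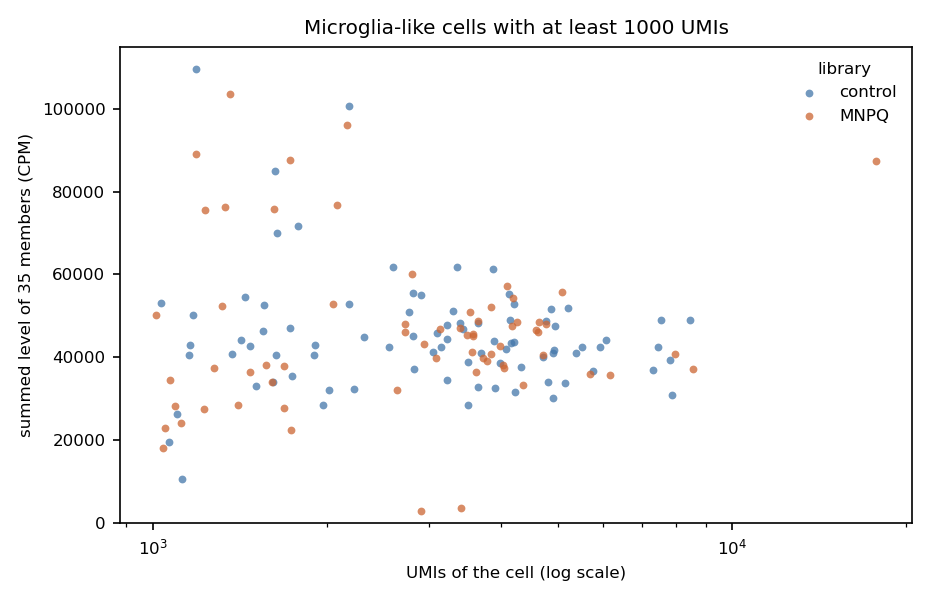
Summed level of the 35 members in CPM (vertical axis) against the UMIs of the cell (horizontal axis, log scale) for the 85 control and 65 MNPQ microglia-like cells with at least 1000 UMIs, 1 point per cell. The medians are 43022 and 43197 CPM, and the MNPQ cell with 17718 UMIs lies alone at the right at 87256 CPM.

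Among the proteases, Ctsd was higher in the MNPQ library with and without that cell. Ctsd had 2916 UMIs in control and 2935 in MNPQ microglia-like cells, or 8040 and 11121 CPM (log2 ratio 0.47, 0.39 to 0.54), and 8066 and 9687 CPM without the deepest cells (0.26, 0.19 to 0.34). It was above 0 under all 16 alternatives tried (0.26 to 0.50) and in each of the 3 microglia-like clusters (0.22, 0.57 and 0.26, the last with an interval of -0.054 to 0.57). Ctss went the other way by a small amount, from 10196 to 9636 CPM (-0.082, -0.16 to -0.0083), and at -0.13 (-0.21 to -0.056) without the deepest cells. It was lower in the 2 shallow clusters (-0.30 and -0.39) and level in the deep one (0.014, -0.076 to 0.10). The deep cluster holds the deepest MNPQ cell, whose Ctss level was 15577 CPM against 9208 in the other MNPQ cells of the class. The ratio of that cluster was not recomputed without this cell. Lgmn, the asparaginyl endopeptidase that activates other cathepsins, was at 4657 and 4085 CPM (-0.19, -0.30 to -0.078), which was -0.12 (-0.23 to -0.0081) without the deepest cells. Ctsz, a carboxypeptidase, was at 1671 and 2058 CPM (0.30, 0.13 to 0.47), but the deepest cell held 19.3% of the MNPQ UMIs, and without it the ratio was 0.10 (-0.082 to 0.28). The intervals of the other proteases held 0: Ctsa, Ctsb, Ctsc, Ctsh, Ctsl and Tpp1 lay between 0.15 and 0.50, with Tpp1, a tripeptidyl peptidase, at 108 and 152 CPM, and Ctsf lay at -0.076.

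Of the 7 glycosidases, Man2b1 and Gaa had intervals that excluded 0 in microglia-like cells, in opposite directions. Man2b1, which trims mannose from glycoproteins, had 203 and 187 UMIs, or 560 and 709 CPM (0.34, 0.046 to 0.63), and 0.33 (0.024 to 0.63) without the deepest cells. Gaa had 26 and 8 UMIs, or 71.7 and 30.3 CPM (-1.24, -2.60 to -0.056). Hexa, a subunit of a hexosaminidase, was nearly level at 871 and 887 CPM (0.025, -0.23 to 0.27). Gusb, Glb1 and Neu1, which remove glucuronic acid, galactose and sialic acid, had intervals that held 0, and Gla, alpha-galactosidase A, had only 1 UMI in each library.

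Among the genes of lipid breakdown, Psap, the precursor of the saposins that present lipids to hydrolases, was at 2013 and 2463 CPM (0.29, 0.14 to 0.45). The deepest cell held 16.0% of its MNPQ UMIs, and without the deepest cells the ratio was 0.13 (-0.030 to 0.30). Grn, progranulin, was at 979 and 1072 CPM (0.13, -0.099 to 0.36), and Npc2, the soluble cholesterol carrier, at 1141 and 1194 (0.064, -0.15 to 0.28). The intervals of Asah1 (acid ceramidase), Lipa (acid lipase), Ppt1 (palmitoyl-protein thioesterase) and Npc1 also held 0, at ratios from -0.30 to 0.33. No member of this role therefore lay outside counting error once the deepest cells were left out.

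For the membrane proteins, Lamp1 was higher in the MNPQ library at 1048 and 1288 CPM (0.30, 0.083 to 0.51), and at 0.27 (0.044 to 0.49) without the deepest cells, although it was at -0.19 (-0.70 to 0.32) in 1 shallow cluster. Cd63 had the highest ratio of the class at 455 and 693 CPM (0.61, 0.30 to 0.92), of which the deepest cell held 25.7% of the MNPQ UMIs. Without the deepest cells it was 0.27 (-0.067 to 0.61). Laptm5 (2060 and 1868 CPM, -0.14, -0.31 to 0.025), Laptm4a (645 and 572, -0.17, -0.48 to 0.13) and Lamp2, of which 1 splice form is the receptor of chaperone-mediated autophagy (369 and 299, -0.30, -0.72 to 0.11), were lower within counting error. Cd68, Scarb2 and Cln3 lay between 0.024 and 0.46 with intervals that held 0, and Laptm4b (10 and 9 UMIs) and the cation channel Mcoln1 (3 and 4) were under the minimum of 20. The 15 microglia markers summed to 53035 and 52798 CPM in the class, and the 12 markers of mature oligodendrocytes to 2672 and 3683 CPM (2 and 0 of them at 0). The 9 border macrophage markers had 2 and 19 UMIs there (7 and 3 of them at 0). The part of these markers in the ratios was not tested.

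**Figure D4:**
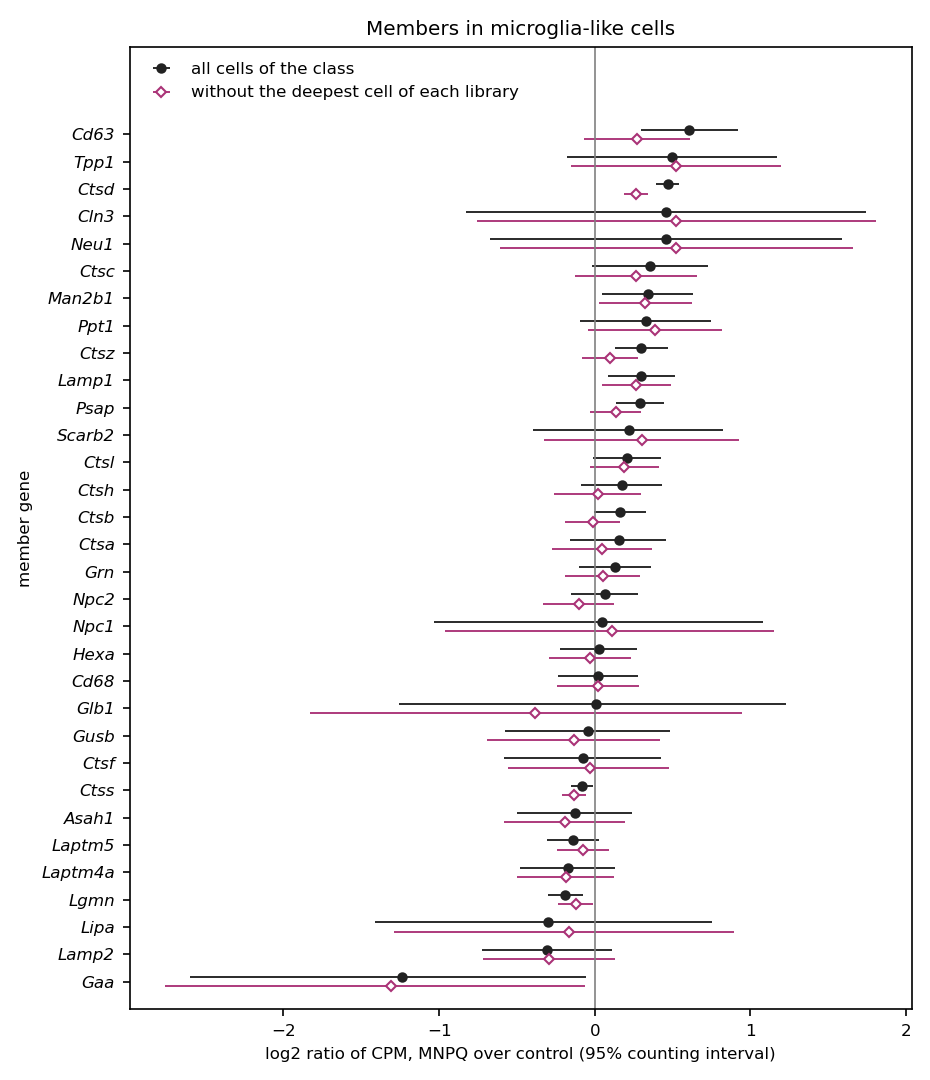
Log2 ratio of CPM, MNPQ over control (horizontal axis), of the 32 members with at least 20 UMIs in microglia-like cells, with 95% counting intervals. Filled circles use all cells of the class and open diamonds leave out the deepest cell of each library; Ctsd moves from 0.47 to 0.26, and the interval of Cd63 comes to hold 0.

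In neuron-like cells the summed level was 4581 CPM (control) and 6310 (MNPQ), 1.38-fold higher (log2 ratio 0.46, 0.32 to 0.61), the largest ratio among the 6 classes. Only 15 members had at least 20 UMIs, of which 12 were higher and 3 lower (51.9% of 3132 genes were higher), 8 were past 1.5-fold (36% of all genes) and 4 had intervals that excluded 0 (14.8% of all genes). The median of these members was 0.18 and that of all genes 0.042. Psap led the sum, at 236 and 351 UMIs or 1523 and 2572 CPM (0.76, 0.51 to 1.00). Ctsb, a cysteine protease, was at 458 and 843 CPM (0.88, 0.44 to 1.33), and Lgmn, on 19 and 40 UMIs, at 123 and 293 CPM (1.26, 0.44 to 2.13). Gaa, which had its highest level in this class, was lower in the MNPQ library, at 477 and 300 CPM (-0.67, -1.26 to -0.099).

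Ctsd (219 and 249 CPM, 0.18), Laptm4a (245 and 264, 0.11) and Lamp1 (284 and 300, 0.082) lay near level in neuron-like cells, with intervals that held 0. Neu1, the lysosomal sialidase, had 15 and 8 UMIs (-0.72, -2.17 to 0.61). The most numerous neuron-like cluster, with 102 control and 115 MNPQ cells, had a summed ratio of 0.53 (0.36 to 0.70), and in it Psap was at 0.86, Ctsb at 0.95, Gaa at -0.84 and Lgmn at 0.82 (-0.069 to 1.75). The other 4 clusters of the class were small (from 1 to 8 cells per library). Weighting equally the clusters with at least 3 cells in each library, which left out the cluster of 1 control and 8 MNPQ cells, brought the sum to 0.086 and Ctsb to 0.091. This alternative was added after the data were seen, as was leaving out the deepest cells. Per cell the spread was wide. Among cells with at least 1000 UMIs the median was 3470 CPM in 35 control cells (398 to 8189). It was 3937 in 44 MNPQ cells (0 to 27333), so the ranges overlapped. With these cells thinned to 1000 UMIs, Psap was found in 71.4% (control) and 72.7% (MNPQ) of them. Lgmn was found in 11.4% and 13.6%, Ctsb in 31.4% and 40.9% and Gaa in 25.7% and 13.6%. For each of these genes the 95% intervals of the shares overlapped. Whether the class ratios of these genes came from many cells or few was not tested. Markers of other classes were also higher in the MNPQ library, the 15 astrocyte markers at 2000 and 3291 CPM (1 and 0 of them at 0) and the 12 oligodendrocyte markers at 2239 and 4075 (0 and 1 at 0), while the 15 microglia markers were at 297 and 249 CPM (3 and 4 at 0). The part of these markers in the ratios was not tested.

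Astrocyte-like cells had a nearly level sum, 9269 CPM (control) and 8928 (MNPQ) (-0.054, -0.11 to 0.0043). Of 27 members measured, 12 were higher and 15 lower, where 54.4% of 5832 genes were higher, 3 were past 1.5-fold (33.5% of all genes) and 4 had intervals that excluded 0 (21.6% of all genes). The median of the members was -0.073 and that of all genes 0.056. Psap was lower, with 884 and 685 UMIs or 1664 and 1341 CPM (-0.31, -0.46 to -0.17), as was Laptm4a at 924 and 791 CPM (-0.23, -0.42 to -0.032). Npc2 was higher at 329 and 413 CPM (0.33, 0.030 to 0.62) and Gaa at 92.3 and 143 (0.63, 0.090 to 1.18). Cd63, the member with the most UMIs among the membrane proteins here, was at 1608 and 1731 CPM (0.11, -0.031 to 0.24), and Ctsb at 640 and 570 (-0.17, -0.40 to 0.062).

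Asah1 (0.37) and Ctsf (0.33) had high ratios and Scarb2 (-0.35) and Lgmn (-0.33) low ones in astrocyte-like cells, all with intervals that held 0. The clusters of the class did not share a direction. In a shallow cluster of 143 control and 218 MNPQ cells the summed ratio was 0.26 (0.14 to 0.38), in a deep one of 109 and 67 cells it was -0.12 (-0.19 to -0.049), and in another of 70 and 14 cells it was -0.27 (-0.59 to 0.046). Lamp1 showed the same split, at 0.44, -0.31 and -1.26 in these clusters, so its class ratio of -0.11 (-0.28 to 0.063) stands for none of them. Psap was level in the shallow cluster (-0.0095, -0.28 to 0.26) and lower in the deep one (-0.44, -0.63 to -0.25). The median depth of the deep cluster was 2637 UMIs (control) and 4610 (MNPQ). The genes that most set the clusters apart included Lhx2 in the shallow one, and Agt and Itih3 in the deep one and in that of 70 and 14 cells. The mix of these clusters differed between the libraries. The part of depth in these ratios, and of this mix in the class ratios, was not tested.

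**Figure D5:**
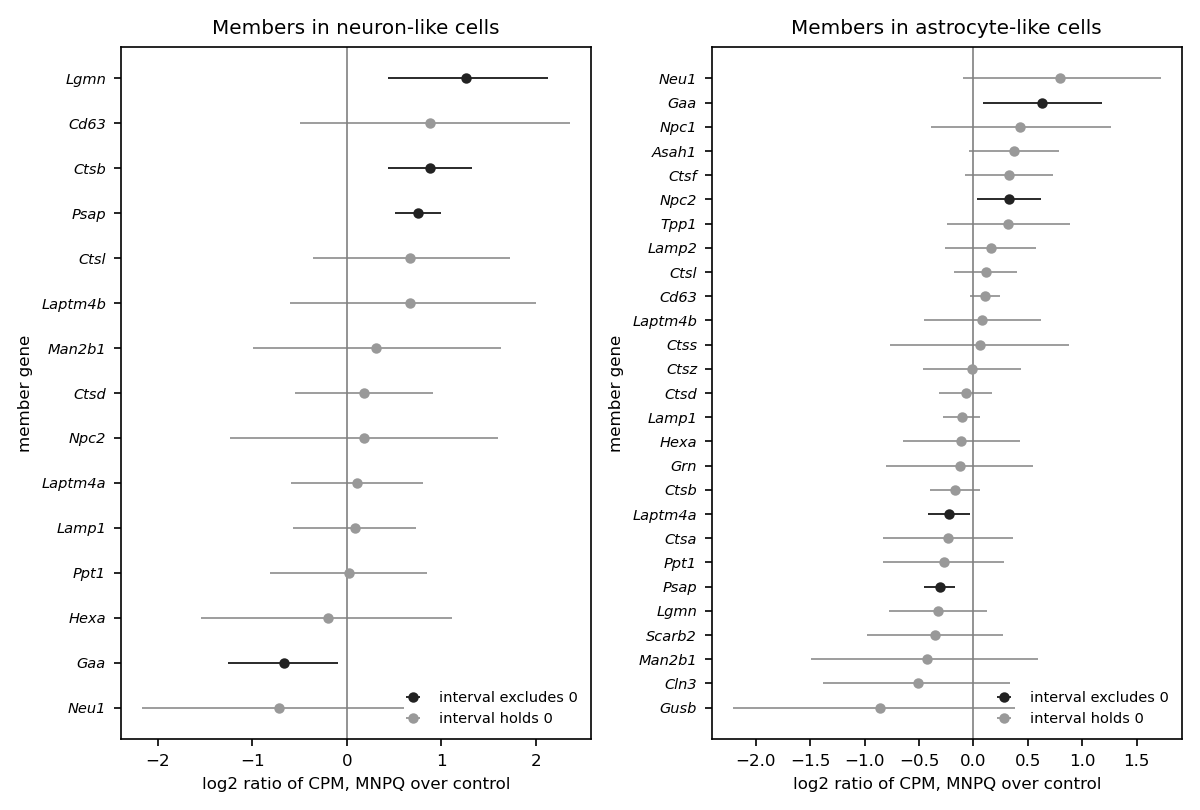
Log2 ratio of CPM, MNPQ over control (horizontal axis), with 95% counting intervals, for the 15 members measured in neuron-like cells (left) and the 27 in astrocyte-like cells (right). Dark points have intervals that exclude 0: Lgmn, Ctsb and Psap above it and Gaa below it on the left, Gaa and Npc2 above it and Laptm4a and Psap below it on the right.

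The remaining classes differed little in sum. Mature oligodendrocyte-like cells were at 6979 and 7141 CPM (0.033, -0.055 to 0.12), with 15 of 27 members higher (50.9% of 4373 genes), 5 past 1.5-fold (24.5% of all genes) and 2 with intervals that excluded 0 (11.1%). Ctsz was higher there on few UMIs, 13 and 58, or 55.3 and 142 CPM (1.36, 0.47 to 2.35), and Laptm4a was lower at 268 and 174 CPM (-0.63, -1.14 to -0.11). The 12 endothelial markers were at 174 and 648 CPM in this class (6 and 0 of them at 0), and their part in the ratios was not tested. Lamp1, with the most UMIs in this class, was level at 1953 and 2001 CPM (0.035, -0.13 to 0.20). Psap (851 and 758), Ctsb (409 and 504), Ctsd (221 and 276), Lgmn (319 and 252), Ctsl (149 and 120), Laptm4b (102 and 152) and Hexa (85.1 and 51.4 CPM) had intervals that held 0.

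Endothelial-like cells were at 4164 and 4522 CPM (0.12, 0.0074 to 0.23), and at 0.11 (-0.0067 to 0.22) without the deepest cells. There 15 of 25 members were higher (47.4% of 4800 genes), 5 were past 1.5-fold (25% of all genes) and 1 had an interval that excluded 0 (11.6%). This was Npc2, at 202 and 296 CPM (0.56, 0.068 to 1.05). The 5 erythroid markers were at 10833 and 28214 CPM in this class (0 of them at 0 in both), the astrocyte markers at 844 and 1237 and the oligodendrocyte markers at 1166 and 1472, and their part in the ratios was not tested. Ctsh (516 and 618, 0.26), Grn (92.3 and 119, 0.37), Psap (417 and 441, 0.081), Laptm4a (820 and 837, 0.030), Ctsb (185 and 184 CPM, -0.0079) and Hexa (75.2 and 45.1, -0.74) had intervals that held 0.

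Pericyte-like cells were at 8022 and 8277 CPM (0.045, -0.12 to 0.21; -0.020 without the deepest cells, and of the same sign in 7 of 17 alternatives), with 11 members measured, 7 of them higher (53.7% of 1336 genes), 5 past 1.5-fold (30.9%) and 2 with intervals that excluded 0 (11.3%). Psap was at 527 and 855 CPM (0.70, 0.11 to 1.31), which was 0.55 (-0.087 to 1.19) without the deepest cells, of which the MNPQ one held 10.6% of the UMIs of the class. Cd63 was at 1918 and 1474 CPM (-0.38, -0.75 to -0.012). Lamp1 (851 and 1013), Laptm4a (2107 and 1842) and Ctsd (338 and 408 CPM) had intervals that held 0, and Hexa had 5 and 8 UMIs. The astrocyte markers were at 1053 and 3171 CPM in this class (2 and 1 of 15 at 0), and their part in the Psap ratio was not tested.

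Over all kept cells the sum was lower in the MNPQ library, although the sums of microglia-like and neuron-like cells were higher. The members summed to 12953 CPM (control) and 12091 (MNPQ) (-0.099, -0.13 to -0.074), while microglia-like cells made up 21.8% of control and 16.3% of MNPQ cells. With the 6 classes weighted equally the ratio was 0.11. Of 34 members measured, 14 were higher (47.4% of 12067 genes), 1 was past 1.5-fold (25.9% of all genes; Mcoln1, with 20 and 33 UMIs, 0.76, -0.090 to 1.63) and 9 had intervals that excluded 0 (27.1%). Among those with at least 60 UMIs, the lowest were members with their highest level in microglia-like cells: Laptm5 at 379 and 258 CPM (-0.56, -0.72 to -0.39), Lgmn at 969 and 685 (-0.50, -0.60 to -0.40) and Ctss at 1873 and 1328 (-0.50, -0.57 to -0.42). Cd68 (149 and 114, -0.38), Hexa (229 and 185, -0.31) and Laptm4a (773 and 649, -0.25) were also lower, while Neu1 (36.5 and 53.1, 0.54), Lamp1 (910 and 1062, 0.22) and Npc2 (401 and 444 CPM, 0.14) were higher. Ctsd (0.044) and Psap (-0.027) were near level. Without the deepest cells Ctsd was at -0.18 (-0.25 to -0.11) and Psap at -0.085 (-0.17 to 4.7e-05). The interval of Npc2 came to hold 0 (0.059, -0.085 to 0.20), while those of Neu1 (0.54, 0.088 to 1.0) and Lamp1 (0.21, 0.12 to 0.30) stayed above it. In that setting 2 members had intervals above 0 and 9 had intervals below it. Npc1 (0.33) and Laptm4b (0.24) were the next highest after Neu1 among members with at least 60 UMIs, with intervals that held 0.

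Other genes of the lysosome were read from 6 lists in the same cells. In microglia-like cells, 9 of 15 measured V-ATPase subunits were higher (median 0.12), 9 of 20 other hydrolases (-0.037), 7 of 12 other membrane proteins (0.044), 6 of 10 genes for sorting enzymes to the lysosome (0.17) and 5 of 10 genes of the TFEB family and of nutrient sensing (-0.054), beside 43.5% of all genes of the class. No interval among the V-ATPase subunits excluded 0 (10.3% of all genes did), and those with at least 60 UMIs ranged from Atp6ap2 (204 and 182 CPM, -0.17) to Atp6v1e1 (124 and 174, 0.49), with Atp6v0b at 574 and 674 CPM (0.23). The tetraspanin Cd9 was higher at 1602 and 1842 (0.20, 0.024 to 0.38). Ratios of these other genes were not recomputed without the deepest cells. Cst3, cystatin C, a secreted inhibitor of cysteine cathepsins, was nearly level at 90200 and 88336 CPM (-0.030, -0.054 to -0.0058).

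In astrocyte-like cells, 4 genes of the machinery that anchors mTORC1 to the lysosome had intervals above 0. Lamtor5 was at 99.8 and 213 CPM (1.10, 0.61 to 1.60), Lamtor1 at 102 and 188 (0.89, 0.39 to 1.40), Lamtor3 at 69.7 and 125 (0.85, 0.24 to 1.47) and the GTPase Rraga at 105 and 151 (0.52, 0.00045 to 1.04), while Lamtor2 was level at 175 and 166 (-0.073, -0.52 to 0.37). Of the 8 measured genes of that list 5 were higher, with a median of 0.47, and the intervals of 4 excluded 0, beside 54.4% and 21.6% of all genes of the class. Of 16 V-ATPase subunits 10 were higher (0.11), a share near that of all genes, and 3 had intervals that excluded 0, among them Atp6v1g1 (230 and 395 CPM, 0.78, 0.45 to 1.12), while 11 of 14 other membrane proteins were lower (-0.28), among them the tetraspanins Cd9 (514 and 348, -0.56) and Cd81 (5069 and 3669 CPM, -0.47, -0.55 to -0.38). Cst3 was higher at 30556 and 35368 CPM (0.21, 0.18 to 0.24). The other hydrolases with at least 60 UMIs ranged from Ctso (218 and 157 CPM, -0.48, -0.91 to -0.056) to Smpd1, acid sphingomyelinase (160 and 208, 0.38, -0.051 to 0.80), and the sorting genes from M6pr (-0.25) to Vps29 (0.43), with intervals that held 0. The median gene with at least 60 UMIs in this class was itself at 0.17, against which these values are to be read.

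In neuron-like cells 9 of 15 V-ATPase subunits were higher (median 0.13), and the intervals of 5 excluded 0, in both directions, beside 51.9% and 14.8% of all genes of the class. Atp6ap1, an accessory subunit, was the highest at 271 and 454 CPM (0.75, 0.16 to 1.35) and Atp6v1f the lowest at 323 and 169 (-0.94, -1.72 to -0.20). Atp6v0b, with the most UMIs, was at 703 and 652 CPM (-0.11, -0.53 to 0.31). Cst3 was at 2923 and 3914 CPM in this class (0.42, 0.24 to 0.61). The remaining 4 lists had from 4 to 6 measured genes each in neuron-like cells, with medians from -0.26 to 0.32.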

How the data were processed

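UMI counts were measured in 2 droplet libraries, 1 for control and 1 for MNPQ mice. The deposited matrices hold whole-number UMI counts per gene and barcode, which per the file headers came from Cell Ranger 3.0.2, on the build mm10 per the submitters' processing notes; how barcodes were called is not given in the sources used here. Kept were barcodes with 200 or more genes and no more than 20% mt- UMIs. With scanpy 1.11.5, each cell was scaled to 10000 counts and log-transformed, and 2000 variable genes without 138 lysosome genes, 30 principal components, 15 neighbours and Leiden clustering at resolution 1.0 gave 16 clusters, of which those of at least 40 cells that were mixed or unnamed were split once more with 8 neighbours (27 clusters, 9 unnamed). Names came from the 17 marker lists, except that of dopaminergic neurons, which was not used for naming, and needed at least 3 markers. Leaving the lysosome genes out keeps the classes from resting on the members. UMIs were summed per class and library and scaled to the class total, and intervals (scipy 1.17.1) cover counting error only. Doublets called by Scrublet, 9 control and 6 MNPQ cells, were kept in. Reads of genes that overlap on the opposite strand cannot be told apart unless strand was used, which is not given in the sources used here; among members, Ctsa (overlapped by Pltp and Neurl2), Ctsb, Ctsc, Ctsl, Ctsz, Hexa, Ppt1, Npc1, Grn, Lamp1 and Cln3 have such a partner, and Ctsd and Glb1 overlap a gene on their own strand.

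Named were, per class, the 3 highest and 3 lowest ratios among members with at least 60 UMIs, the member with the most UMIs of each role and members with at least 20 UMIs whose interval excluded 0; for levels, the 3 highest and 3 lowest ratios of microglia-like over other cells; for the 6 other lists, the highest, lowest and most numerous gene with at least 60 UMIs, of which 1 hydrolase is not reported here. The members and lists were chosen with earlier results of these data known. Alternatives were other cell filters, clusterings, scalings, weightings and UMI minimums; weighting clusters equally and leaving out the deepest cells were added after the data were seen. Levels are compared within a gene, not between genes. No other samples were analysed here.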

Additional observations from a re-analysis of the deposited data

Results flagged for a closer look

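Several members had counting intervals on opposite sides of 0 in different classes, and none of these differences between classes was tested. Lgmn was at a log2 ratio of 1.26 in neuron-like and -0.189 in microglia-like cells. Gaa was at 0.631 in astrocyte-like cells, -1.24 in microglia-like and -0.668 in neuron-like cells. Psap was at 0.291 in microglia-like, 0.756 in neuron-like and 0.699 in pericyte-like cells but at -0.312 in astrocyte-like cells. Cd63 was at 0.608 in microglia-like and -0.38 in pericyte-like cells. Of these, the intervals of Psap and Cd63 in microglia-like cells and of Psap in pericyte-like cells came to hold 0 without the deepest cell of each library.

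The barcodes that the filter removed, 223 control and 111 MNPQ, entered only the alternative with no cell filter. Their summed member level was 2553 CPM (control) and 4172 (MNPQ) (log2 ratio 0.708, 0.521 to 0.895), opposite in sign to the ratio over kept cells.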

How the results depend on the processing

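Log2 ratios of MNPQ over control were recomputed under each alternative. Of 282 values for the 23 summed values and medians, 30 had the other sign than the value reported, in 13 results; 11 of these were results whose interval excluded 0 or, for medians, that were at least 0.1 from 0. The pericyte-like sum kept its sign in 7 of 17 alternatives. Of 1042 values for 67 single members, 68 had the other sign, in 26 results, 4 of them for members whose interval excluded 0. The cause of these changes was not tested. With at least 500 genes and at most 10% mt- UMIs, the sums were -0.127 over all kept cells, 0.0682 in microglia-like and 0.312 in neuron-like cells, the medians -0.0742 in neuron-like and -0.0567 in pericyte-like cells, and microglia-like over other classes 2.70 in the control; with no cell filter the sum over all cells was -0.0346 and the control ratio between classes 2.63. At Leiden resolution 1.5 the pericyte-like median was -0.000478 and the MNPQ ratio between classes 2.71, and with lysosome genes kept in the clustering that median was -0.000478. With classes from marker scores per cell the microglia-like sum was 0.0514. Thinned to 1000 UMIs, the sums were 0.0408 in microglia-like, -0.114 in endothelial-like and 0.288 in pericyte-like cells, the medians -0.166 in endothelial-like and -0.0424 in microglia-like cells, Cd63 in pericyte-like cells 0.114 and the control ratio between classes 2.66. In cells under 1000 UMIs the sums were 0.0164 in astrocyte-like, 0.428 in endothelial-like, 1.66 in mature oligodendrocyte-like, 0.188 in microglia-like and -1.45 in pericyte-like cells, Cd63 in pericyte-like cells 0.0182, Npc2 over all kept cells -0.245 and the ratios between classes 2.06 (control) and 2.14 (MNPQ). The values 1.66 and -1.45 rest on very few cells. At least 1000 UMIs were held by 53 of 54 control and 75 of 80 MNPQ mature oligodendrocyte-like cells, and by 26 of 30 and 23 of 31 pericyte-like cells. In cells with at least 1000 UMIs the neuron-like median was -0.145 and the ratios between classes 2.67 and 2.78. Centred on the median gene, the sums were -0.219 in astrocyte-like and 0.166 in microglia-like cells. Scaled without abundant UMIs, the astrocyte-like sum was -0.127 and the MNPQ ratio between classes 2.72. With each cell weighted equally the sums were 0.0374 in astrocyte-like and -0.161 in pericyte-like cells, the pericyte-like median -0.116, Npc2 over all kept cells -0.134 and the ratios between classes 2.50 and 2.55; with classes weighted equally the sum over all kept cells was 0.114. Without the member with the most UMIs the sums were 0.193 in microglia-like and 0.289 in neuron-like cells and the ratios between classes 2.17 and 2.34. Chosen after seeing the data were clusters weighted equally (microglia-like sum 0.096, neuron-like sum 0.0859, neuron-like median -0.0764) and leaving out the deepest cell of each class (sums 0.0393 in microglia-like and -0.182 over all kept cells). No paired analysis was possible because each group has 1 library; with 1 library per group no replicate could be left out. Depth limits members under 20 UMIs in a class, for which no ratio was counted.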
